A study of Drosophila melanogaster with 3 samples.

Results

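Of the 7545 reproducible peaks of the tagged protein CG10543, 311 (4.12%) had their summit within 500 bp of a transcription start and nearest to the start of a noncoding gene. A peak was taken when the nearest of all annotated starts, transposable elements left out, belonged to a gene that does not code for protein, that is a gene annotated as ncRNA, tRNA, snoRNA, snRNA, rRNA or pseudogene. The choice used position alone, so the strength and the sequence of the peaks were not part of it. These peaks are 7.53% of the 4129 peaks within 500 bp of any start. The other 3818 were nearest to a protein-coding start and serve as the set for comparison, and 3416 peaks lay farther than 500 bp from every start. Of the 3818, 6 lay equally far from a noncoding and a protein-coding start and were left with the protein-coding gene. The members lay at 274 genes, of which 240 had 1 member, 31 had 2 and 3 had 3. These genes are 6.49% of all 4219 annotated noncoding genes, a share to set beside those of single classes below.

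The peaks come from chromatin immunoprecipitation sequencing (ChIP-seq) with an antibody against GFP on whole embryos, aged 0 to 24 h and of mixed sex, of a stable transgenic line in which GFP is joined to the C-terminal end of CG10543. Chromatin was sonicated to 200 to 800 bp. All 3 biological replicates belong to 1 group, so the comparisons here are between kinds of start within that group. Whole embryos mix all cell types and a full day of development, and a peak found in few cells cannot be told apart from a weak peak found in many. Embryos without the tagged protein were not analysed here, so signal that does not need the tagged protein was not measured.

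Noncoding genes differ in how they are transcribed. Long noncoding and antisense RNAs, the primary transcripts that carry microRNA hairpins, the spliced hosts of small nucleolar RNAs and most small nuclear RNAs are made by RNA polymerase II, while transfer RNAs, U6 and 7SK are made by RNA polymerase III. The annotated start of a microRNA hairpin, of an intronic small nucleolar RNA or of a mature transfer RNA marks an end made by processing, and it need not be where transcription begins. Many antisense and long noncoding RNAs start close to a protein-coding promoter and run away from it or into the gene.

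The sequences below show the 151 bases around the summit, 75 on each side, for 9 members that the results return to, and are given on the strand of the noncoding gene. They are credited to the RefSeq copy of Release 6 (dm6). Capitals mark matches on either strand to the motifs sought, and a window with no capitals holds none of them in its 151 bases. The motif shares below use 201 bases, in which lncRNA:CR31840, lncRNA:CR43334, lncRNA:CR31044 and tRNA:Tyr-GTA-1-8 do hold motifs. The first is the strongest member, at the long noncoding RNA gene lncRNA:CR31840 (chr2L:14024021-14024171, minus strand), followed by lncRNA:CR46036 (chr3R:17700486-17700636, plus strand), in which TATAAA occurs 3 times. Then come the hosts of the microRNAs bantam, lncRNA:CR43334 (chr3L:628179-628329, plus strand), and miR-279 with miR-996, lncRNA:CR31044 (chr3R:29214374-29214524, plus strand). The next are 7SK (chr3R:7474686-7474836, minus strand) and a transfer RNA for tyrosine (chr3R:8669306-8669456, minus strand). The last are the heat shock RNA Hsromega (chr3R:21296213-21296363, plus strand), where the capitals are CGATA read from the other strand, roX1 (chrX:3862427-3862577, minus strand) and roX2 (chrX:11579196-11579346, plus strand), where the capitals are TCAGT read from the other strand.
lncRNA:CR31840: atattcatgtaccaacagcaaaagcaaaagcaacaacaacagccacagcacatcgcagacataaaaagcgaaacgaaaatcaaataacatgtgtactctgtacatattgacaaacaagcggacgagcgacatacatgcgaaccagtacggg
lncRNA:CR46036: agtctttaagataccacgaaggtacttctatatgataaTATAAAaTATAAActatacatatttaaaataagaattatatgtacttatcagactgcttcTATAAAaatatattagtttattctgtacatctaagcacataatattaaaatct
lncRNA:CR43334: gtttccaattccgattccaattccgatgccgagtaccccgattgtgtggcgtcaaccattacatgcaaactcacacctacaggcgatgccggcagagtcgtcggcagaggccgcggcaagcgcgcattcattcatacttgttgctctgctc
lncRNA:CR31044: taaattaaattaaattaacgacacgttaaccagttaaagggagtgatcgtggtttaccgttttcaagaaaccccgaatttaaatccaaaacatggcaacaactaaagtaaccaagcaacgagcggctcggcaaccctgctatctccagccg
snRNA:7SKa: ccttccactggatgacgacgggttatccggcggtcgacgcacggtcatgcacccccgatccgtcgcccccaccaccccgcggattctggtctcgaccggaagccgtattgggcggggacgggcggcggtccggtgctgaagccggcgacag
tRNA:Tyr-GTA-1-8: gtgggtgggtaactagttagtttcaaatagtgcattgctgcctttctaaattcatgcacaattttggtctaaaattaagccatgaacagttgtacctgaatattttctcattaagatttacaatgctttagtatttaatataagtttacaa
lncRNA:Hsromega: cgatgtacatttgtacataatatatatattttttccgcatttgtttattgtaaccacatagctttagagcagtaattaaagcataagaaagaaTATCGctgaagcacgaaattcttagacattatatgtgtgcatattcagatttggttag
lncRNA:roX1: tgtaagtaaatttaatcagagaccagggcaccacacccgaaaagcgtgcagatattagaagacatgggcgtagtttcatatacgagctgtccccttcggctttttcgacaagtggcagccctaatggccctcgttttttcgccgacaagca
lncRNA:roX2: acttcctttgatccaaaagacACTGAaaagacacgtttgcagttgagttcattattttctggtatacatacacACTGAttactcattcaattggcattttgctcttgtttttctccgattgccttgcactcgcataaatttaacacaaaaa

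For 3 rarer motifs, the next sequences show matches among the members with 10 bases on either side, the motif in capitals and written in its own direction. The DNA replication-related element (DRE, TATCGATA) occurred at asRNA:CR45008 (chr2L:7821481-7821508, plus strand) and at lncRNA:CR45297 (chr2L:4811994-4812021, plus strand). Motif 1 (GGTCACACT) occurred at lncRNA:CR43334 (chr3L:628540-628568, plus strand), lncRNA:CR33963 (chrX:12659369-12659397, plus strand) and the pseudogenes CR42875 (chr3R:7128240-7128268, plus strand) and CR31032 (chr3R:29859899-29859927, minus strand). The B box (GGTTCGAA), an internal promoter element of transfer RNA genes, occurred at 3 long noncoding RNA genes: lncRNA:CR43644 (chr3R:26021201-26021228, plus strand), lncRNA:CR45251 (chr3L:11349605-11349632, minus strand) and lncRNA:CR45750 (chr3R:16800242-16800269, minus strand). These genes were named after their values were seen. The summits at asRNA:CR45008, lncRNA:CR33963 and CR42875 also lay 97, 35 and 172 bp from a protein-coding start. The summits with these motifs at lncRNA:CR45297, CR31032 and lncRNA:CR43334 lay 1029, 996 and 20089 bp from one.
asRNA:CR45008 DRE: ccctgctggcTATCGATAagagttatcg
lncRNA:CR45297 DRE: ttggaatcggTATCGATAaagcaaactg
lncRNA:CR43334 Motif 1: gctggcatctGGTCACACTgttaaggggt
lncRNA:CR33963 Motif 1: actcgcggctGGTCACACTgccgggcaac
CR42875 Motif 1: ctcaacaaacGGTCACACTgctgttataa
CR31032 Motif 1: attatgttgcGGTCACACTcctcgataac
lncRNA:CR43644 B box: catgcaccttGGTTCGAAgtcgactagt
lncRNA:CR45251 B box: acaacaaagcGGTTCGAAaacaatggac
lncRNA:CR45750 B box: tgcaaggcctGGTTCGAAttgtaaactt

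Each peak is described by its rank in the signal that the authors deposited, with rank 1 the strongest. The signal is the peak caller's own measure of enrichment and was used only to order peaks within a list. Each replicate has its own list of 30000 regions, and a peak was matched to the strongest region of a replicate whose summit lay within 200 bp. The q-value was below 0.01 for 12593 regions of replicate 1, for 7016 of replicate 2 and for 7612 of replicate 3. The lists hold no read counts, so the depth of each sample is unknown, and the exact Clopper-Pearson 95% intervals given with shares cover the counting of genes or peaks only. Of the 311 members, 188 (60.5%, 95% interval 54.8 to 65.9%) were matched among the 7545 strongest regions of every replicate, 81 of 2 replicates, 39 of 1 and 3 of none. Over all peaks 55.9% were matched in this way in every replicate, and over peaks at protein-coding starts 57.4%. By the q-value, 63.0% of members were below 0.01 in every replicate, against 63.4% of peaks at protein-coding starts and 61.9% of all peaks.

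The strongest members came from 5 classes of gene. The 20 strongest lay at 19 genes. Of the 20, 13 were at long noncoding RNA genes, a class with 202 of all 311 members (65.0%), 3 at antisense RNA genes, 2 at tRNA genes, 1 at 7SK and 1 at the snoRNA host Uhg4. All 20 were among the strongest regions of every replicate, and none ranked below 1113 in any of them. Of the 100 strongest peaks in the whole set, 8 were members and 59 were at protein-coding starts. Over the full list the members were spread widely, from rank 5 to rank 7543 with a median of 3866, against a median of 3358.5 for peaks at protein-coding starts.

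**Figure D1:**
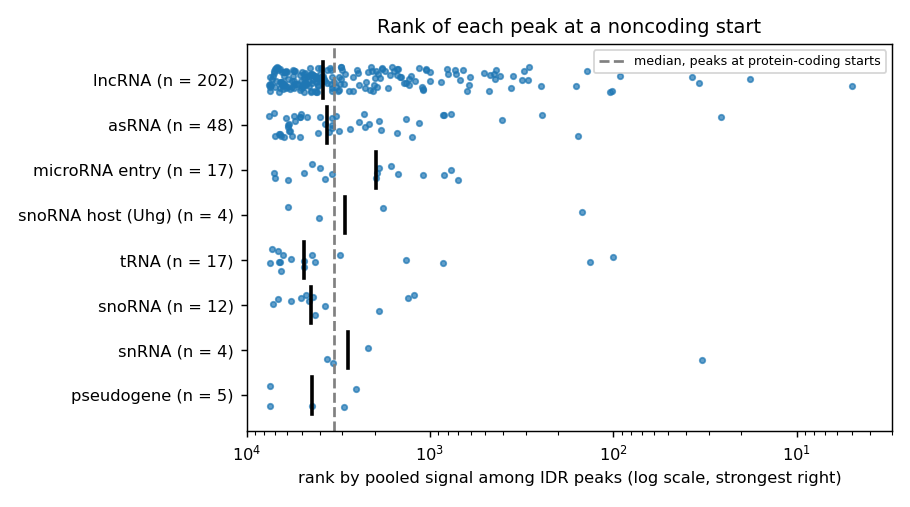
Rank of each of the 311 members except 2 of other ncRNA genes among the 7545 peaks, on a log axis with the strongest to the right, by class. Short bars are class medians and the dashed line is the median of peaks at protein-coding starts (3358.5); the microRNA entries have a median of 1972 and the tRNA genes 4887.

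Long noncoding RNA genes held 202 of the 311 members, at 172 of 1944 annotated genes. The strongest was at lncRNA:CR31840 (interval chr2L:14023835-14024752), a gene of 378 bp whose start lay 3 bp from the summit. It ranked 3 in replicate 1, 7 in replicate 2 and 8 in replicate 3. Its rank over the pooled data was 5, and every replicate placed it among its strongest regions. The nearest protein-coding start, that of hll, was 2905 bp away. A second summit in the same interval, 208 bp upstream of the start, ranked 61, 312 and 269. Next came lncRNA:CR44339, with ranks of 23, 25 and 20 in the replicates and 18 over the pooled data. Its summit lay 157 bp upstream of the start and 4216 bp from Psc, a gene of the Polycomb group.

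Several of the other leading long noncoding RNA genes were far from any protein-coding start. At lncRNA:CR46036 the summit 180 bp upstream of the start ranked 49, 28 and 71 in the replicates and 37 over the pooled data, and the nearest protein-coding start was 13490 bp away. A neighbouring member at lncRNA:CR46035, 401 bp downstream of its start, ranked 54, 353 and 433 and lay 14254 bp from osa, which encodes a subunit of a chromatin remodelling complex. Both noncoding genes start inside a protein-coding gene on the opposite strand. At lncRNA:CR45640 the summit, 227 bp upstream, ranked 28 in replicate 1, 354 in replicate 2 and 274 in replicate 3, with mtSSB, the gene of a mitochondrial single-stranded DNA-binding protein, 3196 bp away. Replicate 1 placed CR46035 and CR45640 higher than the other replicates did. At lncRNA:CR45541, 272 bp upstream and 1770 bp from the hexokinase gene Hex-A, the ranks were 487, 231 and 313.

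In 3 of the leading long noncoding cases a protein-coding start was within reach of the same peak. The member at lncRNA:CR44149 ranked 144, 77 and 108, lay 47 bp downstream of the noncoding start and was 152 bp from brwl. At lncRNA:CR45168 the ranks were 1113, 241 and 201 and the distance to sti, which encodes a kinase of cytokinesis, was 108 bp, against 86 bp to the noncoding start. At lncRNA:CR30055 the ranks were 211, 494 and 453, with Sin3A, the gene of a transcriptional corepressor, 413 bp away. For such members position alone does not say which of the starts a peak belongs to.

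**Figure D2:**
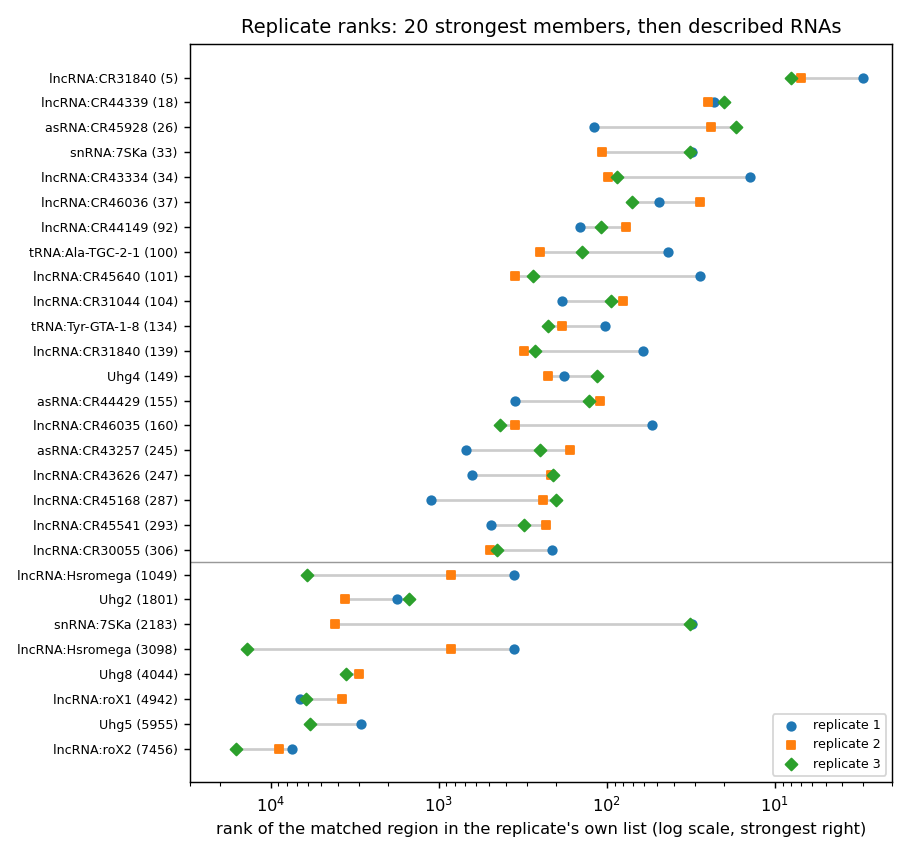
Rank of the matched region in each replicate's own list, on a log axis with the strongest to the right, for the 20 strongest members (upper block) and for further summits at RNAs described in the literature (lower block); numbers in brackets are ranks over the pooled data. The ranks of lncRNA:CR44339 lie between 20 and 25, while those of lncRNA:Hsromega spread between 359 and 6109.

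Long noncoding genes that carry a microRNA had a member in a larger share than other long noncoding genes. Of 34 lncRNA genes that hold a microRNA hairpin on their own strand, 13 (38.2%, 95% interval 22.2 to 56.4%) had a member, against 159 of 1910 other lncRNA genes (8.32%, 95% interval 7.12 to 9.65%). The rule applied to the strongest regions of each replicate gave 52.9% of host genes in replicate 1, 29.4% in replicate 2 and 29.4% in replicate 3, against 8.53%, 7.70% and 7.33% of other lncRNA genes. The share was higher for host genes in 3 of 3 replicates, by 29.4 ± 13.0 percentage points (SD, n = 3; exact two-sided sign-flip permutation test, p = 0.25, the smallest that 3 replicates allow). Host genes were longer, with a median of 6116.5 bp against 654 bp, and both kinds had a median of 1 annotated start per gene. Among genes of 2000 bp or more, 12 of 31 host genes (38.7%) had a member, against 22 of 191 others (11.5%). Host genes were still longer in this set, with a median of 7584 bp against 3703 bp, so length was not matched. In single replicates that difference was 26.3 ± 13.9 points (SD, n = 3; exact sign-flip permutation test, p = 0.25). The split by microRNA content was chosen, and the host genes outside the strongest members were named, after their values were seen.

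Of the 17 members at these host genes, 13 lay upstream of the start, as far as 413 bp, and 12 were among the strongest regions of every replicate. Over all 311 members 57.2% lay upstream and 60.5% were among those regions, against 67.9% and 57.4% of peaks at protein-coding starts. With 17 members these counts do not set the host genes apart. No protein-coding start lay within 1000 bp of any of the 17. The strongest was at lncRNA:CR43334, the host of bantam, a microRNA that promotes growth and blocks cell death, with ranks of 14, 98 and 87 in the replicates for a summit 181 bp upstream of the start. That gene had further members at ranks 3739 and 5027 over the pooled data, at other annotated starts. At lncRNA:CR31044, the host of miR-279 and miR-996, the summit 113 bp upstream ranked 186, 80 and 95. At lncRNA:CR43626, the host of miR-282, the summit 295 bp upstream ranked 635, 215 and 208. These 3 host genes were thus in the strongest part of every replicate.

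Members at the other host genes had weaker ranks. The strongest of these over the pooled data was at lncRNA:CR43650, at rank 811, ahead of Hsromega at rank 1049. Hsromega holds mir-4951 and is described with the roX RNAs. The gene lncRNA:CR43650 is the host of miR-8, a microRNA of growth control and of the miR-200 family. The stronger of its summits ranked 2299, 665 and 502 in the 3 replicates. The host of miR-14, lncRNA:CR43651, ranked 481, 1577 and 2301, with the summit 1 bp upstream of the start. The host of mir-bft, lncRNA:CR43314, ranked 1321, 2369 and 1407, and that of miR-184, lncRNA:CR44206, ranked 3868, 3851 and 5365. The host of the muscle microRNA miR-1, lncRNA:CR45361, ranked 4388, 3311 and 5101 with its summit 413 bp upstream. The replicates disagreed at some hosts. For the host of the neural microRNA miR-124, lncRNA:CR45919, the ranks were 2317, 14783 and 5313, and for the host of miR-375, lncRNA:CR45345, they were 1844, 14140 and 29877, so replicate 1 alone placed the second of these among its strongest regions. The host of miR-13a, miR-13b-1 and miR-2c, lncRNA:CR45911, ranked 4186, 28480 and 10863, and that of miR-1000, lncRNA:CR45910, ranked 2720, 19320 and 15374.

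MicroRNA entries themselves gave 17 members at 15 of 741 annotated entries (2.02%). Of these, 10 were at hairpin genes and 7 at unnamed entries, of 18 to 29 bases, that lie inside a hairpin gene. Of the 741 entries, 481 are such short entries, and each summit was given to a single gene. The 2.02% therefore counts some loci more than once and is not a share of microRNA loci. Their median rank of 1972 was higher in the list than that of any other class with more than 4 members. The strongest was at mir-277, whose summit lay 426 bp upstream of the hairpin and ranked 213, 1471 and 1919. Next was mir-9373, whose summit lay inside the hairpin, 14 bp downstream of its start. It was 17 bp from the protein-coding start of CG6231 and ranked 819, 985 and 1007. The hairpin of mir-314, 257 bp from its summit, came after it with 381, 1548 and 1328. The hairpins of mir-10, with Dfd as its nearest protein-coding gene, and of mir-34, downstream of mir-277, had weaker summits with pooled ranks of 4397 and 7130. These microRNAs too were named after their values were seen.

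Antisense RNA genes held 48 members at 46 of 503 genes. The strongest, at asRNA:CR45928, ranked 119 in replicate 1, 24 in replicate 2 and 17 in replicate 3. Its summit was 76 bp downstream of the antisense start and 105 bp from the start of eIF6, which encodes a factor of ribosome biogenesis and translation initiation. At asRNA:CR44429 the ranks were 351, 110 and 127, and the nearest protein-coding start was that of gce, a juvenile hormone receptor gene, 581 bp away. At asRNA:CR43257 the ranks were 684, 166 and 249, and Reg-5 was 211 bp away. In each of these 3 cases replicate 1 gave the lowest position of the replicates. Over the class, 32 of 48 members had a protein-coding start within 1000 bp, of which 16 ran divergently, 15 faced it and 1 was on the same strand. Of all 503 annotated antisense genes, 294 (58.4%) have a protein-coding start that near, against 32 of the 46 antisense genes with a member. The antisense gene started inside a protein-coding gene on the opposite strand in 34 cases.

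Among small structural RNAs the strongest signal was at 7SK, the RNA that holds the elongation factor P-TEFb in an inactive complex. The member at snRNA:7SKa lay 235 bp downstream of the start, inside the gene of 444 bp, and ranked 31, 107 and 32 in the replicates and 33 over the pooled data. A second summit, 34 bp downstream of the start, shared the matched regions of replicates 1 and 3 and ranked 4127 in replicate 2. The other 2 snRNA members lay just upstream of the start. The one at snRNA:U1:95Ca, an RNA that recognises the start of introns, was 25 bp upstream and ranked 3443, 2823 and 5131. The one at snRNA:U6:96Ac, of the catalytic core of the spliceosome, was 40 bp upstream and ranked 4070, 3272 and 5301. All 4 snRNA members were among the strongest regions of every replicate. In all, 3 of 32 snRNA genes (9.38%, 95% interval 1.98 to 25.0%) had a member. These genes have similar copies, as tRNA and snoRNA genes do, and whether reads were placed uniquely is not given in the sources used here, so their values are uncertain.

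Transfer RNA genes held 17 members, each at a different gene, of 290 annotated (5.86%, 95% interval 3.45 to 9.22%). The strongest, at tRNA:Ala-TGC-2-1, ranked 43, 249 and 141, with its summit 360 bp downstream of the start and so beyond the end of a gene of 72 bp. At tRNA:Tyr-GTA-1-8 the summit was 207 bp upstream of the start, 237 bp from CG8036, and ranked 102, 186 and 223. These were the only tRNA members among the 20 strongest. The next were tRNA:Thr-AGT-1-2, with ranks of 810, 1615 and 693, tRNA:Arg-CCT-1-2, with 1289, 1631 and 1888, and tRNA:Leu-CAG-1-2, with 3283, 4813 and 3426. The summits were mostly displaced from the gene body, with 13 of 17 upstream and 2 of 17 within 100 bp of the start. The median rank over the pooled data was 4887, and 9 of 17 were among the strongest regions of every replicate.

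Small nucleolar RNAs guide the methylation and pseudouridylation of ribosomal and small nuclear RNA. Their own genes held 12 members at 10 of 269 genes. The strongest were snoRNA:Psi18S-301, with replicate ranks of 730, 3605 and 1126, snoRNA:Psi18S-176, with 1246, 1664 and 2017, and snoRNA:185, with 1988, 1852 and 1723. After them came the snoRNA gene FBgn0263459, at 2278, 7277 and 5943, and snoRNA:abba-a, which had no matched region in replicate 1 and ranked 2099 and 3938 in replicates 2 and 3. Of the Uhg genes, which carry snoRNAs in their introns, 4 of 7 had a member (exact Clopper-Pearson interval 18.4 to 90.1%). All 4 summits lay upstream of the start. Each also had a protein-coding start on the opposite strand nearby. It was 577 bp away for Uhg4 (Boot), 219 bp for Uhg2 (Bka), 327 bp for Uhg8 (CG5199) and 266 bp for Uhg5 (CG12863). For these members position alone does not say which of the starts a peak belongs to. Uhg4 ranked 180, 225 and 114 and its summit lay 38 bp upstream. Uhg2, 65 bp upstream, ranked 1759, 3628 and 1499. Uhg8 was unmatched in replicate 1 and ranked 2982 and 3568 in the others, and Uhg5 was unmatched in replicate 2 and ranked 2917 in replicate 1 and 5826 in replicate 3. Uhg1, Uhg3 and Uhg7 had no member, with the nearest summits 3634, 1809 and 1418 bp from a start.

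Pseudogenes and ribosomal RNA genes gave few members. At pseudogenes there were 5, at 5 of 268 genes (1.87%). The strongest were CR42875, with ranks of 4116, 2248 and 2973, and CR33294, with 4288, 2323 and 3230, then CR31032 with 4522, 3256 and 5987. The last, CR43972 and tRNA:His-GTG-2-1Psi, had pooled ranks of 7421 and 7430 and reached the strongest regions of 1 replicate each. None of 99 annotated rRNA genes had one, which allows a share of up to 3.66% (upper 95% bound). Ribosomal RNA genes are near-identical copies, so their value is uncertain. Other ncRNA genes gave 2 members, sisRNA:CR46357 and snoRNA:Or-ACA9, at ranks 5919 and 6474.

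Of 32 noncoding RNAs sought by name because they are described in flies, 26 were annotated under that name and 8 had a member. Over all annotated noncoding genes the share with a member was 6.49%. The roX RNAs, which guide the dosage compensation complex on the male X chromosome, both had weak peaks. At roX1 the summit lay 77 bp upstream of a start and ranked 6712, 3757 and 6178. At roX2 it lay 206 bp downstream and ranked 7468, 8857 and 15978, near the end of the whole list at 7456. The heat shock RNA Hsromega, which forms nuclear speckles, had a summit 161 bp downstream of a start with ranks of 359 in replicate 1, 848 in replicate 2 and 6109 in replicate 3, so replicate 3 stood apart there. A second summit, at another start of the same gene, had the same matched regions in replicates 1 and 2 and ranked 13764 in replicate 3. The other 5 are the RNAs 7SK, Uhg2, Uhg4, Uhg5 and Uhg8.

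Several well studied RNAs had no member. In the bithorax complex, the nearest summits to bxd, iab8 and iab4 lay 1370, 1216 and 626 bp from a start. The nearest to let7C, which carries let-7, was 12430 bp away, to the neural stem cell RNA cherub 29472 bp, and to flam, a source of transposon-silencing piRNAs, 257700 bp. For 7SL, RNaseP RNA and RNaseMRP RNA the distances were 1410, 1002 and 1179 bp. The names bft, msa, 20A, rncs1, MRE16 and Uhg6 matched no gene symbol, so whether these RNAs have a peak was not measured by name. The gene lncRNA:CR43314, which holds mir-bft, did have a member.

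A smaller share of noncoding than of protein-coding genes had a peak at the start. A peak was nearest to a start of 274 of 4219 noncoding genes (6.49%, 95% interval 5.77 to 7.28%) and of 3004 of 13945 protein-coding genes (21.5%, 95% interval 20.9 to 22.2%), with 18.0% over all 18164 genes. Noncoding genes had 1.04 annotated starts on average, against 1.41 for protein-coding genes. In the strongest regions of single replicates the shares were 6.99%, 5.93% and 5.71% of noncoding genes, against 19.8%, 21.2% and 23.2% of protein-coding genes. The difference of −15.2 ± 2.37 percentage points (SD, n = 3) had the same sign in 3 of 3 replicates (exact two-sided sign-flip permutation test, p = 0.25). Within the noncoding genes, lncRNA (8.85%, 95% interval 7.62 to 10.2%) and antisense RNA genes (9.15%, 95% interval 6.77 to 12.0%) had overlapping intervals, and pseudogenes and microRNA entries were at the low end. For microRNA entries this holds for the annotation as it stands, in which short entries lie inside hairpin genes. Without microRNA entries 7.45% of noncoding genes had a member. With only the peaks that replicates 1 and 2 both recovered, that is without replicate 3, 207 members remained and 4.29% of noncoding genes had one.

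**Figure D3:**
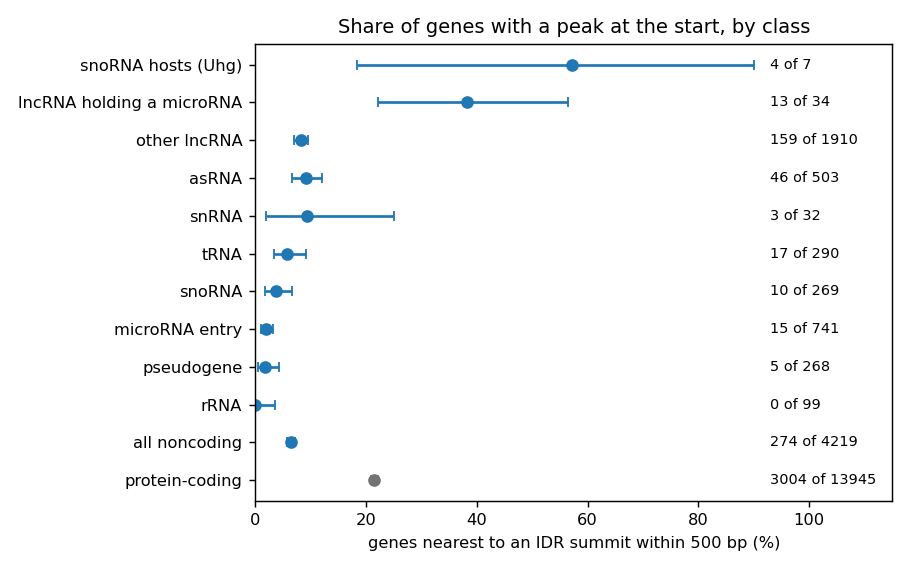
Share of annotated genes that are nearest to a peak summit within 500 bp, by class, with exact Clopper-Pearson 95% intervals and counts at the right. The snoRNA hosts (4 of 7) and the lncRNA genes that hold a microRNA (13 of 34) stand above other lncRNA genes (159 of 1910), and noncoding genes as a whole have 6.49%, against 21.5% of protein-coding genes. The summits at all 4 snoRNA hosts also had a protein-coding start within 1000 bp.

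Most members had no protein-coding start within 1000 bp, but a sizeable minority did. The rule bears on these distances, since a summit nearer or equally near to a protein-coding start could not be a member, so they are given as a description only. Counted by gene, 1190 of all 4219 annotated noncoding genes (28.2%) have a protein-coding start within 1000 bp. A protein-coding start lay within 500 bp of 72 members (23.2%) and within 1000 bp of 111 (35.7%), while for 70 members (22.5%) it was over 5000 bp away. Of the 111, 60 were divergent from the protein-coding gene, 22 faced it and 29 ran on the same strand. The pooled rank had a median of 3391 for the divergent members, 5111.5 for the facing ones, 4447 for those on the same strand and 3850.5 for the 200 members with no such start within 1000 bp. The noncoding gene started outside protein-coding genes in 190 cases, on the opposite strand of one in 79 and on the same strand in 42. Of the noncoding genes with a protein-coding start within 1000 bp, 97 of 1190 (8.15%) had a member, against 177 of 3029 (5.84%) of those farther away. Such a neighbour was found for 54 of 202 long noncoding RNA members (26.7%) and for 32 of 48 antisense members (66.7%). These shares count peaks. Counted by gene, it was found for 42 of the 172 long noncoding RNA genes with a member and 32 of the 46 antisense genes. Of all annotated genes of these classes, 435 of 1944 long noncoding RNA genes (22.4%) and 294 of 503 antisense genes (58.4%) have one.

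The position of the summit relative to the start decided which peaks were members, so its values are given as a description only. The median distance was 171 bp at noncoding starts and 102 bp at protein-coding starts, and 103 members (33.1%) were within 100 bp, against 1878 peaks (49.2%) at protein-coding starts. In the 100 bp just upstream of the start lay 19.6% of members and 28.9% of peaks at protein-coding starts. Between 400 and 500 bp downstream these shares were 7.40% and 1.36%. Upstream of the start lay 178 members (57.2%), against 67.9% of peaks at protein-coding starts. The rule applied to the strongest regions of each replicate gave medians of 153.5, 197 and 162.5 bp at noncoding starts, against 106, 113 and 92 bp at protein-coding starts. No test was made of these distances, since the rule that chose the members used them, both in the bound of 500 bp and in the choice of the nearest start. Just inside that bound lay the members at lncRNA:CR44203, 499 bp away at rank 660, and at lncRNA:CR45793 and lncRNA:CR44697, both 498 bp away at ranks 6645 and 1825. Just outside it were summits 501 bp from tRNA:Ile-AAT-1-9 at rank 3284, 505 bp from mir-31a at rank 2109 and 506 bp from lncRNA:CR44097 at rank 3799.

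**Figure D4:**
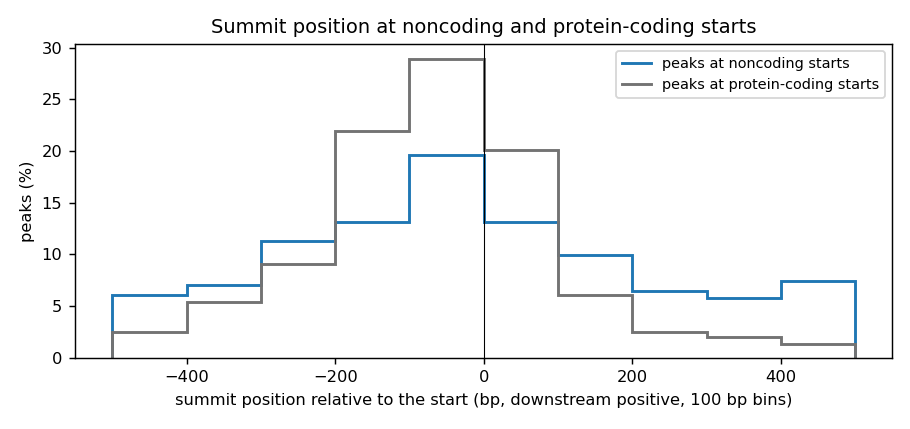
Share of peaks in each 100 bp bin of summit position relative to the start, downstream positive, for 311 peaks at noncoding and 3818 peaks at protein-coding starts. In the bin just upstream of the start the noncoding line is at 19.6% and the protein-coding line at 28.9%.

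The replicates did not agree on whether members were stronger or weaker than peaks at protein-coding starts. The median member stood at percentile 90.9 of the 30000 regions in replicate 1, 87.6 in replicate 2 and 86.8 in replicate 3, against 87.9, 88.9 and 89.8 for peaks at protein-coding starts. The difference was 2.97, −1.27 and −3.08 percentile points, with a mean of −0.46 ± 3.10 (SD, n = 3; exact two-sided sign-flip permutation test, p = 0.75). The share of members among the 7545 strongest regions was 83.3%, 80.1% and 82.6% in the replicates, against 78.5%, 80.6% and 87.1% of peaks at protein-coding starts. That difference averaged −0.08 ± 4.61 percentage points (SD, n = 3; exact two-sided sign-flip permutation test, p = 1). In both measures the members were ahead in replicate 1 and behind in replicates 2 and 3. Replicate 1 was also the replicate with the longest list of regions below the q threshold, and its part in the result was not tested. The number of regions at noncoding starts among the strongest 7545 of a replicate was 354, 292 and 266, or 8.74%, 7.43% and 6.22% of regions at any start.

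The DRE and the BEAF-32 core, motifs of protein-coding promoters, were rarer at the members. In windows of 201 bases around the summit, searched on both strands, the DRE (TATCGATA), a site of the promoter factor DREF, was in 3 of 311 member windows (0.965%, 95% interval 0.199 to 2.79%) and in 4.35% of windows at protein-coding starts, with 2.33% of all 7545 windows. The third of these members was at lncRNA:CR44209, also named after its values were seen, and with only the peaks that replicates 1 and 3 both recovered, that is without replicate 2, no member window held the DRE. The core CGATA of sites for the insulator protein BEAF-32, which is contained in the DRE, was in 23.8% of member windows (95% interval 19.2 to 28.9%) and in 36.0% at protein-coding starts, with 30.1% of all. Motif 1 (GGTCACACT), bound by M1BP, was in 1.61% of member windows (95% interval 0.524 to 3.71%) and 2.67% at protein-coding starts, with 1.46% of all. Other motifs had closer shares: the GAGA element (GAGAGA) was in 10.6% of member windows and 12.4% of windows at protein-coding starts, the Zeste site (TGAGTG) in 12.5% and 10.7%, the GATA site (AGATAA) in 14.8% and 12.3%, the TATA box (TATAAA) in 22.5% and 26.5% and the Initiator (TCAGT) in 34.7% and 36.3%. Over all windows these were 12.5%, 11.8%, 13.5%, 25.3% and 33.2%. The cAMP response element (CRE, TGACGTCA) was in 0 of 311 member windows, which allows up to 1.18% (upper 95% bound), and in 0.629% at protein-coding starts, with 0.623% of all.

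A CA repeat (CACACACA) and the B box had larger shares at members. The CA repeat was in 11.9% of member windows (95% interval 8.52 to 16.0%) and 8.41% of windows at protein-coding starts, with 9.17% of all. The B box was in 4 member windows (1.29%, 95% interval 0.352 to 3.26%) and in 0.471% at protein-coding starts, a share inside that interval, with 0.517% of all. With only the peaks that replicates 1 and 3 both recovered, that is without replicate 2, the B box share of members was 0.463%. Of the 4 windows, 3 were at long noncoding RNA genes and 1 was at the tRNA pseudogene tRNA:His-GTG-2-1Psi. Members within 500 bp of a protein-coding start held the CA repeat in 5 of 72 windows (6.94%) and those farther away in 32 of 239 (13.4%), and the DRE was in 2 and 1 of these windows. Motif 1 was in 3 windows (4.17%) near a protein-coding start and in 2 (0.837%) farther away, against 2.67% at protein-coding starts. The median GC content was 45.3% in member windows, 42.3% at protein-coding starts and 43.3% over all peaks.

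The same differences were looked for in the strongest regions of each replicate. Of the 11 motifs sought, only the DRE, the BEAF-32 core, the CA repeat, Motif 1 and the B box were compared in this way. On average 80.9% of all peaks were matched among the strongest regions of a replicate, so these regions are largely the same peaks. The DRE was in 0.847%, 1.03% and 0.752% of windows at noncoding starts, against 3.11%, 4.62% and 6.43% at protein-coding starts. The BEAF-32 core was in 23.4%, 22.6% and 24.8%, against 32.0%, 34.4% and 39.0%. The CA repeat was in 14.7%, 8.22% and 11.7% at noncoding starts, against 10.6%, 6.18% and 7.31% at protein-coding starts. For the DRE and the BEAF-32 core the replicate values of the noncoding and the protein-coding starts did not overlap, while for the CA repeat they did. Motif 1 was in 1.13%, 1.37% and 1.13%, against 1.95%, 2.39% and 3.77%, and the B box in 1.13%, 1.03% and 0.752%, against 0.541%, 0.522% and 0.599%. Each of these 5 differences, and that of GC content, kept its sign in 3 of 3 replicates, with p = 0.25 in the exact two-sided sign-flip permutation test. Of the 11 such tests made in all, 9 gave p = 0.25, which is 0.306 after Benjamini-Hochberg adjustment over the 11 permutation tests. That adjustment does not cover the choice of the 5 motifs, which was made with earlier results known. The pooled peaks come from these same replicates, so the agreement in sign is not independent support.

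**Figure D5:**
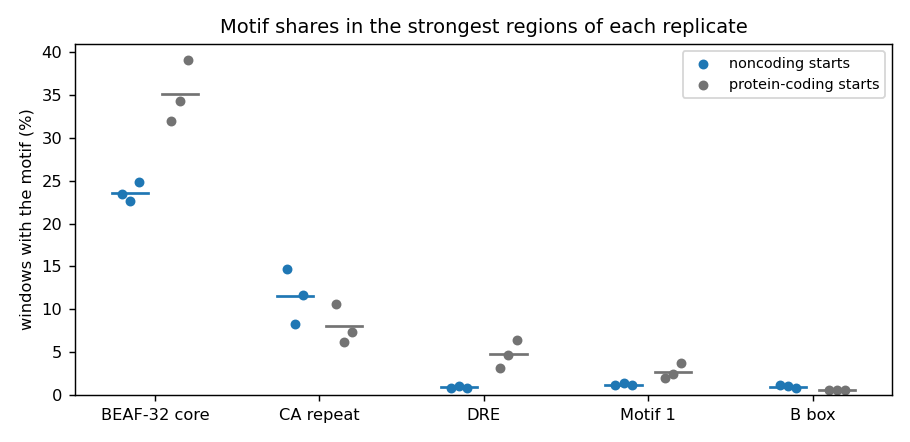
Share of 201-base windows holding each motif in the strongest 7545 regions of each replicate, for regions at noncoding starts (left of each pair) and at protein-coding starts (right); points are the 3 replicates and lines their means. The BEAF-32 core and the DRE are lower at noncoding starts in every replicate, with DRE means of 0.876% and 4.72%, and the CA repeat and B box are higher.

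Among the members, 29.3% lay on 2R, 25.1% on 3R, 18.6% on 2L, 16.4% on 3L and 10.3% on X, against 20.9%, 23.9%, 17.8%, 21.5% and 15.7% of all peaks. By chromosome arm, 84 of 898 noncoding genes on 2R had a member (9.35%, 95% interval 7.53 to 11.5%), 69 of 911 on 3R (7.57%), 43 of 801 on 3L (5.37%), 48 of 954 on 2L (5.03%), 29 of 617 on X (4.70%, 95% interval 3.17 to 6.68%) and 1 of 38 on chromosome 4. With neighbours joined where their summits lay no more than 5000 bp apart, there were 6 groups of 3 or more members, all at long noncoding RNA genes, a count given as a description with no comparison to other peaks. The largest, at chr3R:16208446-16214464, held 5 members at lncRNA:CR45638, lncRNA:CR45640, lncRNA:CR45641 and lncRNA:CR45642. The members at lncRNA:CR31840 and the neighbouring lncRNA:CR45352 formed a group of 4 within 2389 bp, and the weakest member of the bantam host gene formed another group of 4 with the members at lncRNA:CR43423 within 1264 bp. In all, 28 of the 311 members shared a deposited interval with another member, so neighbouring summits are not independent observations.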

How the data were processed

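The members, the gene and motif lists and the tests were chosen with earlier results of these data known. ChIP-seq signal was deposited by the authors as narrowPeak lists for each of the 3 replicates, for their pool and for an optimal set by the irreproducible discovery rate (IDR). Each region has a signal value and a −log10 q-value, both as deposited by the authors. Per the file headers, replicates and pool were called against the same control alignment. How reads were aligned, and which caller was used, is not given in the sources used here. Only dm6 lists were used. Genes came from Ensembl release 115 and bases from the RefSeq copy of Release 6, both in dm6 coordinates. The annotation puts microRNA hairpins and 481 short unnamed entries inside them under ncRNA.

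Each IDR summit was given to the nearest start, and a tie to the protein-coding gene. A replicate's value for a peak is the rank of its strongest summit within 200 bp, and an unmatched peak was put at percentile 0. The strongest regions of a replicate are its first 7545 by signal. Shares have exact Clopper-Pearson 95% intervals. Differences between noncoding and protein-coding starts were computed within each replicate and tested by an exact two-sided sign-flip permutation over the 3 replicates. Those p-values measure only the spread between these samples. Motifs were sought on both strands within 100 bp of the summit. Genes named by rule are those of the 20 strongest members, of up to 5 strongest members of each of tRNA, snoRNA, snRNA, rRNA and pseudogenes, and members on the list of described RNAs. Protein-coding genes are named only as neighbours. The assignment was tested on simulated summits, and the matching on a sample of the real peaks against a direct search. Alternatives changed the start distance, the peak set, the treatment of ties and shared intervals, the matching distance, the window and the replicates used. Python 3.11.15, numpy 2.4.6, scipy 1.17.1 and matplotlib 3.10.9 were used. No columns of other samples were present.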

Additional observations from a re-analysis of the deposited data

How the results depend on the processing

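Of 174 values recomputed under the alternatives, 144 were counted as unchanged, 23 as moved and 7 as changed in sign. For the rank and recovery differences, unchanged means only that the sign was kept. The recovery difference of −0.083 points thus counts as unchanged at −2.50 without replicate 1 and at −1.22 with matching within 100 bp. The rank difference of −0.46 counts as unchanged at −2.17 without replicate 1. The 431 members with starts within 1000 bp also count as unchanged from 311. Where a value moved, the cause was not tested unless the alternative itself takes in fewer peaks or genes. With starts within 200 bp there were 175 members, 3.84% of noncoding genes had one, 44.6% of members had a protein-coding start within 1000 bp, and the difference in recovery was +0.465 percentage points (exact permutation p = 1). Within 1000 bp these gene and neighbour shares were 8.46% and 29.2%. The stronger part of the peak set, 3772 peaks, held 153 members at 3.25% of noncoding genes, with differences of +0.693 percentile points in rank and +1.13 percentage points in recovery and a CA repeat share of 8.50%. Windows of 50 bp on each side gave 5.14% for GAGA, 6.43% for Zeste, 7.72% for GATA, 12.9% for the TATA box, 18.3% for the Initiator, 0 for the B box, 5.47% for the CA repeat and 12.5% for the BEAF-32 core. In alternatives chosen after seeing the data, 7.45% of noncoding genes had a member without microRNA entries, with a recovery difference of +0.010 points, and 4.91% without members within 500 bp of a protein-coding start. Leaving out each replicate in turn, by keeping peaks recovered in both others, gave 207 to 222 members, gene shares of 4.29 to 4.69% and DRE shares of 0 to 0.901%, the 0 without replicate 2, and B box shares of 0.463 to 0.966%. The peak list itself still came from all replicates. For the rank and recovery differences all 311 members were kept and the mean was taken over both other replicates. The mean rank difference was then −2.17 to 0.85 percentile points and the recovery difference −2.50 to 2.09 points. The rank difference was positive at 0.85 without replicate 3, and the recovery difference was positive at 0.166 without replicate 2 and 2.09 without replicate 3. Adding a pre_miRNA class was not run, since the annotation has none. Depth is unknown, so how far it limits the weaker members could not be measured.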
